A study of Mus musculus with 7 samples.

Results

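The genes described here are 10 transcriptional outputs of the PERK branch of the unfolded protein response. They are the transcription factors Atf4 and Ddit3 (CHOP), the feedback genes Trib3 and Ppp1r15a, the glutathione-degrading enzyme Chac1, the amino acid enzymes Asns, Psat1 and Shmt2, and Slc3a2 and Slc7a5, the subunits of a large neutral amino acid transporter. They were chosen by symbol from the 19938 genes that have a probe set paired with exactly 1 gene symbol. All 10 were measured, each by 1 probe set.

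PERK is a kinase in the membrane of the endoplasmic reticulum (ER). When unfolded proteins accumulate it phosphorylates eIF2alpha, which slows most translation but favours translation of the Atf4 message, and ATF4 protein then activates genes of amino acid supply and, together with CHOP, of the later stress response. Because ATF4 is controlled largely at translation and protein stability, its own message need not follow its activity. XBP1, the factor overexpressed in these mice, belongs to a separate branch of the same response, downstream of the kinase and RNase IRE1.

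Epididymal white fat of male mice at 17 weeks on chow was measured in 3 aP2-XBP1 transgenic and 4 wild type samples. The transgene was made on a C57Bl/6J background, and the controls were wild type C57Bl/6J mice of the same age; the labels do not say whether they were littermates, nor which form of XBP1 the transgene encodes. The aP2 promoter is that of Fabp4, which is strong in adipocytes and is also active in other cells such as macrophages, and no allele is named as shared by both groups. Each sample was hybridised to 1 array, and values are log2 expression after RMA. Samples are numbered as replicates without a statement that each is a separate animal, so p-values measure only the spread between these samples.

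Xbp1 read 9.76, 9.99 and 9.66 in transgenic libraries, against 8.90, 9.07, 8.94 and 9.19 in wild type libraries, so the labels and the targeted gene go the same way, although 1 probe set cannot separate the transgene from the endogenous gene. Adipocyte markers were bright in every library, with a mean over 8 genes of 10.95 to 11.12 in transgenic and 10.23 to 10.95 in wild type fat. The libraries do not divide by genotype alone. The epididymal genes Defb42, Serpina1f and Spink8 lay between 2.48 and 3.73 in transgenic libraries and between 2.45 and 2.74 in wild type replicate 2, but between 8.41 and 11.50 in wild type replicates 1, 3 and 4. The other 4 of 7 measured epididymal markers (Lcn5, Lcn8, Adam7 and Cst11) lay between 2.51 and 4.69 in all libraries. Their highest values were transgenic: Adam7 4.69, Lcn8 4.14 and Cst11 3.52 in transgenic replicate 1, and Lcn5 3.82 in transgenic replicate 2. Smooth muscle markers, by their mean over 8 genes, lay between 6.22 and 7.01 in transgenic fat, at 6.85 in wild type replicate 2, and at 8.93, 8.93 and 9.46 in wild type replicates 1, 3 and 4. Differences are therefore also given against wild type replicate 2 alone.

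The promoters are shown because several of these genes are known as direct ATF4 targets. ATF4 binds, with C/EBP partners, a composite element whose core was searched here as TGATGNAA on both strands, in windows from 250 bases before to 50 bases after the annotated start (RefSeq, GRCm38.p6). Windows were found for 9 of the 10 genes, all but Slc7a5, and 3 of them, Asns, Chac1 and Trib3, held the core, beside 3.97% of all 32851 windows. A gene was counted if any of its windows held the core, and some genes have several windows. Counts of genes and shares of windows are therefore not of the same unit. In Asns it lay on the gene's strand, beginning 23 bases before the start; in Chac1 it lay on the other strand, beginning 193 bases before the start; in Trib3 it lay on the other strand, beginning at base 15 of the transcript. The core TGACGTGN of the unfolded protein response element bound by XBP1 and ATF6, was in 0 of the 9, against 2.01% of all windows; no 8 bases can match both cores. A match is a description of letters and not a shown site. The 3 windows that hold the ATF4 core are printed first, 5′ to 3′ on the gene's strand with the core in capitals, at chr6:7693160-7693459 (Asns, minus strand), chr2:119350992-119351291 (Chac1, plus strand) and chr2:152344011-152344310 (Trib3, minus strand).
Asns: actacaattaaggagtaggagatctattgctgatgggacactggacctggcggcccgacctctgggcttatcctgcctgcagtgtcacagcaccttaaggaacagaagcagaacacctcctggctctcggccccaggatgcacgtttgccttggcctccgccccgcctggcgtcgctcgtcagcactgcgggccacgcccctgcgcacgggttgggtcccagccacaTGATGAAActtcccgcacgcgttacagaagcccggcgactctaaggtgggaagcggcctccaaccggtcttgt
Chac1: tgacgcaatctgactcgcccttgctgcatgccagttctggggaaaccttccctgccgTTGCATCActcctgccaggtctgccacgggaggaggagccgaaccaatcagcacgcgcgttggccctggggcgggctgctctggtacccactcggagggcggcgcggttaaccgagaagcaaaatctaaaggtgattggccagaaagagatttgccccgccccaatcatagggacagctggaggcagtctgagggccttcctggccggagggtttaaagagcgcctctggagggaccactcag
Trib3: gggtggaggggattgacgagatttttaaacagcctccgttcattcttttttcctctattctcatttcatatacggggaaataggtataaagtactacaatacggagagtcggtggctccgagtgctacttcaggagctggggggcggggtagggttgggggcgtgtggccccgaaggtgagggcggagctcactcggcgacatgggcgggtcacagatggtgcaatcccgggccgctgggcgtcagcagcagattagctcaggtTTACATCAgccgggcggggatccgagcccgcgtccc

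For contrast, the windows of Psat1, highest above wild type among the 10 genes, and Shmt2, furthest below it, are printed from chr19:15925010-15925309 (minus strand) and chr10:127522395-127522694 (minus strand). Neither holds the core, and neither does the other window that RefSeq gives for Psat1.
Psat1: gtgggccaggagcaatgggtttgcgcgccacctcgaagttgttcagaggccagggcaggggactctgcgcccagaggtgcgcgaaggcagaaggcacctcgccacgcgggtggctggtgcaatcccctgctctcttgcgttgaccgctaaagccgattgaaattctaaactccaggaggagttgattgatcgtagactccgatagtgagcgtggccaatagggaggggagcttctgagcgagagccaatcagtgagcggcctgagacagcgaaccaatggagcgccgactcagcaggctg
Shmt2: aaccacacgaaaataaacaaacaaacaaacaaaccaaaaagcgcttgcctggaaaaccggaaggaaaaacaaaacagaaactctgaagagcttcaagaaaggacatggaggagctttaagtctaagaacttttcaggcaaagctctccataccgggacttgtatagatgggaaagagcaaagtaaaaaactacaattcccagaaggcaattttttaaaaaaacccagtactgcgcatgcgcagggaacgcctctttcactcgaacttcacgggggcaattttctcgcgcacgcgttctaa

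As a group the 10 genes did not move one way. Means were higher in transgenic fat for 4 genes, beside 53.6% of all probe sets, and lower for 6, and the median difference (transgenic minus wild type, log2) was -0.06, against 0.0090 over the 21789 probe sets tested. Against wild type replicate 2 alone 3 genes were higher and 7 lower, with a median difference of -0.09. With limma 0 of the 10 passed an adjusted p of 0.05 in either direction, as did 0% of all probe sets. At an unadjusted p under 0.05 limma found 5 genes, beside 7.94% of all probe sets, with 2 higher (Asns and Psat1), beside 4.82%, and 3 lower (Shmt2, Slc3a2 and Slc7a5), beside 3.12%. Groups did not overlap for 4 genes, beside 5.82% of all probe sets: 1 was higher in transgenic fat, beside 3.38%, and 3 were lower, beside 2.44%. The branch's own factors and its classical stress targets overlapped between genotypes, while the amino acid genes supplied all 4 that did not. Signal level differed too. By mean level Ppp1r15a, Trib3, Ddit3, Chac1 and Atf4 stood at percentiles 45.0, 52.2, 57.3, 58.4 and 73.2 of all probe sets. The amino acid genes stood between 64.1 (Slc7a5) and 97.3 (Slc3a2). The ranges overlapped, since Shmt2, at 65.5, and Slc7a5 were dimmer than Atf4. The part of signal level in this contrast was not tested.

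**Figure D1:**
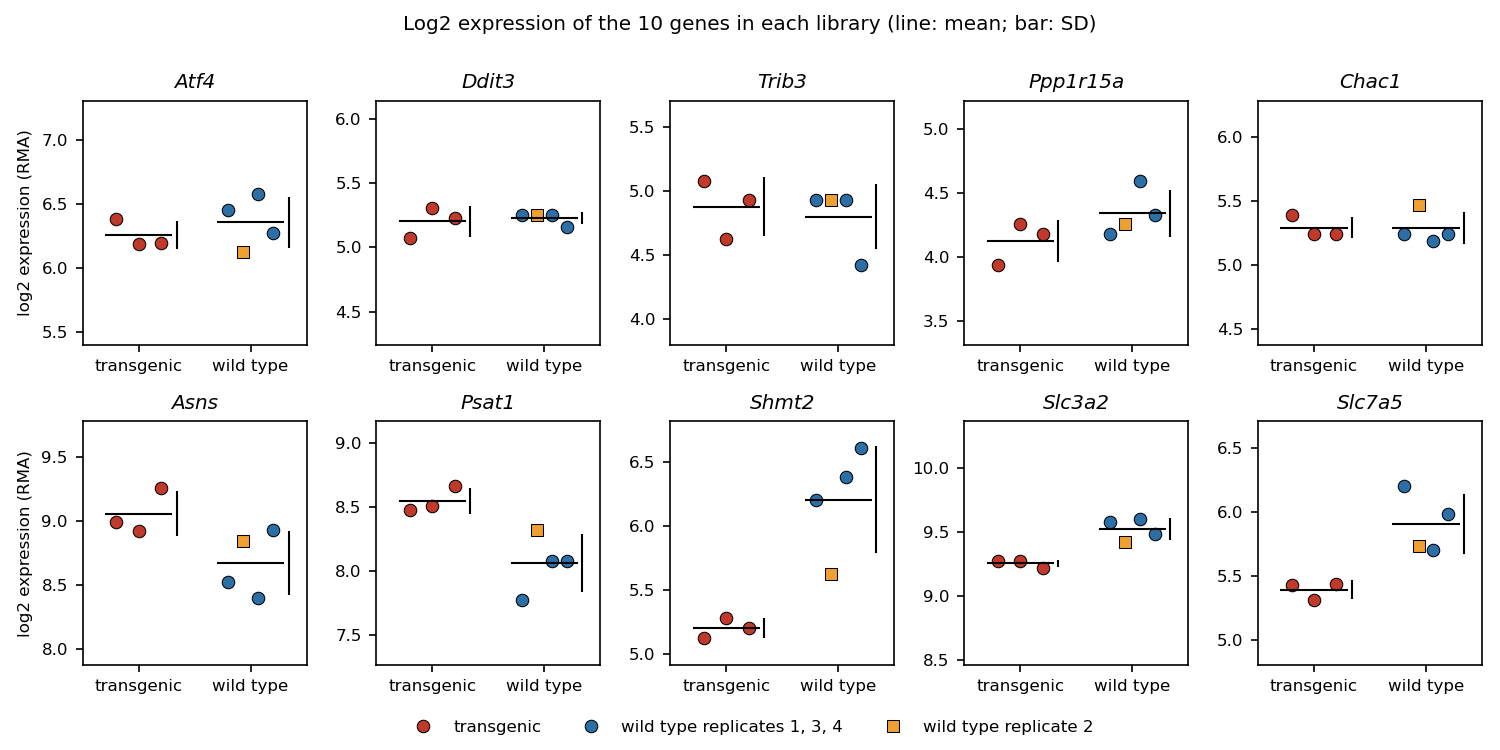
Log2 expression after RMA (vertical axis, the same span in each panel) of the 10 genes in 3 transgenic (red, left) and 4 wild type libraries (right), with wild type replicate 2 as an orange square; lines are means and side bars SD. Psat1 lay wholly above, and Shmt2, Slc3a2 and Slc7a5 wholly below, their wild type values, and the other 6 genes overlapped.

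Atf4, the central transcription factor, had an imprecisely measured difference between genotypes, and 42.1% of all probe sets differed by more in size. It read 6.38, 6.19 and 6.20 in transgenic libraries, against 6.45, 6.13, 6.58 and 6.27 in wild type libraries 1 to 4. The groups overlapped: the lowest of all 7 values was wild type replicate 2 and the highest wild type replicate 3. The log2 difference was -0.10 (SE 0.12, 95% interval -0.39 to 0.18; limma adjusted p = 0.777), and against wild type replicate 2 alone it turned to 0.13. Macrophage markers, by their mean over 8 genes, were 8.54, 8.64 and 8.80 in transgenic libraries, against 9.66, 8.80, 9.63 and 8.06 in wild type libraries, so wild type replicates 1 and 3 were highest, as for Atf4; their part in the Atf4 values was not tested.

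Ddit3 encodes CHOP, the factor that ATF4 induces and that turns on death-related genes under lasting stress. Its values were 5.07, 5.31 and 5.23 in transgenic libraries, against 5.25, 5.25, 5.25 and 5.16 in wild type libraries. The transgenic values spanned the wild type ones on both sides. The difference was -0.025 (SE 0.065; limma adjusted p = 0.900) with a 95% interval of -0.18 to 0.13, and its sign turned to 0.013 when arrays were quantile normalized once more and to 0.015 when they were shifted to a common median. Against wild type replicate 2 alone it was -0.049. The interval concerns only the message on this array's scale and says nothing of CHOP protein. It rests in part on 3 equal wild type values, so it may be too narrow.

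Trib3, a pseudokinase that CHOP and ATF4 induce and that in turn restrains them, read 5.08, 4.63 and 4.93 in transgenic libraries, against 4.93, 4.93, 4.93 and 4.43 in wild type libraries. Apart from wild type replicate 4, which was lowest, every wild type value lay inside the transgenic range. The difference was 0.076 (95% interval -0.33 to 0.48; limma adjusted p = 0.880), and it turned to -0.049 without wild type replicate 4 and to -0.025 without transgenic replicate 1.

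Ppp1r15a encodes GADD34, the phosphatase subunit that removes phosphate from eIF2alpha and so ends the translational arrest. It read 3.94, 4.25 and 4.18 in transgenic libraries, against 4.18, 4.25, 4.59 and 4.33 in wild type libraries. The groups overlapped, with transgenic replicate 1 lowest and wild type replicate 3 highest. The difference was -0.22 (SE 0.12, 95% interval -0.51 to 0.079; limma adjusted p = 0.662). Against wild type replicate 2 alone it was -0.13.

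Chac1, whose product breaks down glutathione and which is among the most responsive ATF4 targets in cultured cells, had the smallest difference of the 10. Transgenic libraries read 5.39, 5.24 and 5.24, against 5.24, 5.47, 5.19 and 5.24 in wild type libraries. Wild type replicate 2 was the highest of the 7 and wild type replicate 3 the lowest. The difference was 0.0058 (SE 0.080, 95% interval -0.19 to 0.20; limma adjusted p = 0.987), smaller in size than that of 95.3% of all probe sets, and -0.18 against wild type replicate 2 alone.

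Some of these near-equal values are exactly equal. To the last deposited digit 4 libraries shared 1 Chac1 value (transgenic replicates 2 and 3, wild type replicates 1 and 4), 4 shared 1 Trib3 value (transgenic replicate 3, wild type replicates 1, 2 and 3), 3 shared 1 Ddit3 value (wild type replicates 1, 2 and 3) and 2 shared 1 Ppp1r15a value (transgenic replicate 2, wild type replicate 2). Among all probe sets tested, 69.5% had such a value in at least 2 libraries, 46.9% in at least 3, 26.5% in at least 4 and 0.569% in all 7. The other 6 genes had 7 distinct values each. A shared value makes a spread look smaller than independent readings would, so the SD of Ddit3 in wild type, 0.048, rests on 3 equal numbers; how the ties arose was not tested.

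Asns and Psat1, which make asparagine and carry out the second step of serine synthesis, were the higher pair. Asns read 8.99, 8.93 and 9.25 in transgenic libraries, against 8.53, 8.84, 8.40 and 8.93 in wild type libraries. Transgenic replicate 2 lay just below wild type replicate 4, so the groups touched. The difference was 0.38 (SE 0.15, 95% interval 0.013 to 0.75, 1.30-fold; limma adjusted p = 0.627), and 0.22 against wild type replicate 2 alone.

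Psat1 read 8.47, 8.50 and 8.66 in transgenic libraries, against 7.77, 8.32, 8.07 and 8.08 in wild type libraries. Every transgenic value lay above every wild type value, and the nearest wild type library was replicate 2. Means were 8.55 ± 0.10 (SD, n = 3) in transgenic and 8.06 ± 0.22 (SD, n = 4) in wild type fat, 1.40-fold apart. The log2 difference of 0.49 (SE 0.13, 95% interval 0.18 to 0.80) had a limma adjusted p = 0.622, and it was 0.23 against wild type replicate 2 alone. As for Psat1, the adipocyte marker mean was lowest in wild type replicate 1 and, among wild type, highest in replicate 2. It was 10.99, 10.95 and 11.12 in transgenic libraries and 10.23, 10.95, 10.51 and 10.64 in wild type libraries. Asns instead was lowest in wild type replicate 3 and, among wild type, highest in replicate 4. The part of the adipocyte markers in the Psat1 and Asns differences was not tested. In bulk tissue fewer cells of a type and less RNA per cell cannot be told apart.

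Shmt2, the mitochondrial enzyme that splits serine into glycine and a one-carbon unit, had the largest difference of the 10. It read 5.13, 5.28 and 5.20 in transgenic libraries, against 6.20, 5.63, 6.39 and 6.61 in wild type libraries. No values overlapped, and wild type replicate 2 stood between the transgenic libraries and the other wild type libraries. The mean was 5.21 ± 0.079 (SD, n = 3) in transgenic and 6.21 ± 0.42 (SD, n = 4) in wild type fat, 2.00-fold lower in transgenic fat (log2 difference -1.002, SE 0.22, 95% interval -1.54 to -0.46; limma adjusted p = 0.622). Only 0.909% of probe sets differed by more. The size depended on the controls: it was -0.42 against wild type replicate 2 alone and -1.19 against the mean of wild type replicates 1, 3 and 4. With wild type replicate 2 left out of the fit, Shmt2 was the only 1 of the 10 genes to pass (limma adjusted p = 0.0388), beside 0.386% of probe sets called lower and 0.0321% called higher in that fit. The libraries high in Shmt2, wild type replicates 1, 3 and 4, are those with the epididymal transcripts and the higher smooth muscle values given above; their part in the difference was not tested.

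Slc3a2 and Slc7a5 encode the heavy and light chains (CD98hc and LAT1) of the exchanger that brings leucine and other large neutral amino acids into cells, and both lay lower in transgenic fat. Slc3a2 read 9.27, 9.27 and 9.22 in transgenic libraries, against 9.58, 9.42, 9.61 and 9.48 in wild type libraries. The 3 transgenic values fell within 0.050 of each other and none reached the lowest wild type value, that of replicate 2. The difference was -0.27 (SE 0.056, 95% interval -0.40 to -0.13, 1.20-fold lower; limma adjusted p = 0.622), the smallest p of the 10 genes, at rank 60 of all probe sets.

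Slc7a5 read 5.43, 5.31 and 5.44 in transgenic libraries, against 6.20, 5.74, 5.70 and 5.98 in wild type libraries. The groups did not overlap, and here the lowest wild type library was replicate 3 and not replicate 2. The difference was -0.51 (SE 0.13, 95% interval -0.82 to -0.20, 1.42-fold lower; limma adjusted p = 0.622). Against wild type replicate 2 alone the difference was -0.34 for Slc7a5 and -0.17 for Slc3a2. The part of the epididymal and smooth muscle transcripts in the differences of these genes was not tested. A single control library leaves its own spread unmeasured.

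**Figure D2:**
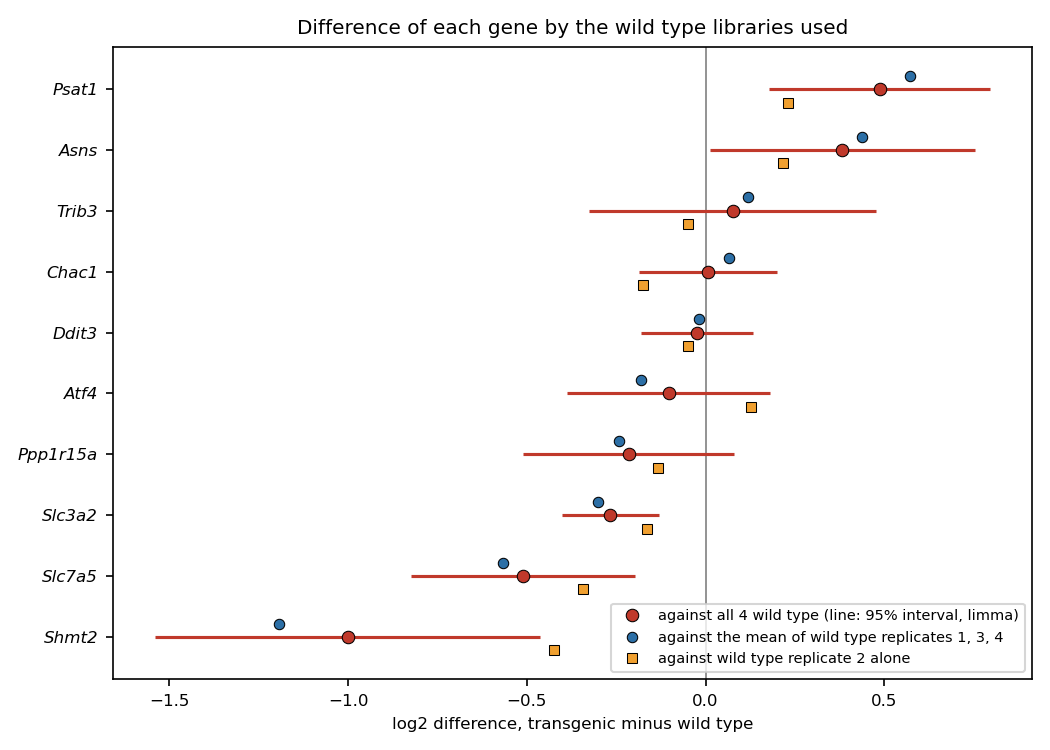
Log2 difference, transgenic minus wild type (horizontal axis), of the 10 genes against all 4 wild type libraries (red, with the 95% limma interval), against the mean of wild type replicates 1, 3 and 4 (blue) and against wild type replicate 2 alone (orange squares). The orange square was nearer to 0 than the blue point for 8 of the 10 genes, and for Atf4, Trib3 and Chac1 the 2 lay on opposite sides of 0. The share of all probe sets with a nearer orange square was not computed.

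Wild type replicate 2 was closer to the transgenic mean than to the mean of wild type replicates 1, 3 and 4 for 6 of the 10 genes (Atf4, Trib3, Chac1, Asns, Psat1 and Shmt2), beside 58.8% of all probe sets tested. For Ddit3, Ppp1r15a, Slc3a2 and Slc7a5 it was closer to the other wild type libraries. The difference against replicate 2 alone was smaller in size than that against the other 3 for 8 of the 10, the exceptions being Ddit3 and Chac1. The share of all probe sets for this count was not computed, so it is not read as a trait of these genes.

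**Figure D3:**
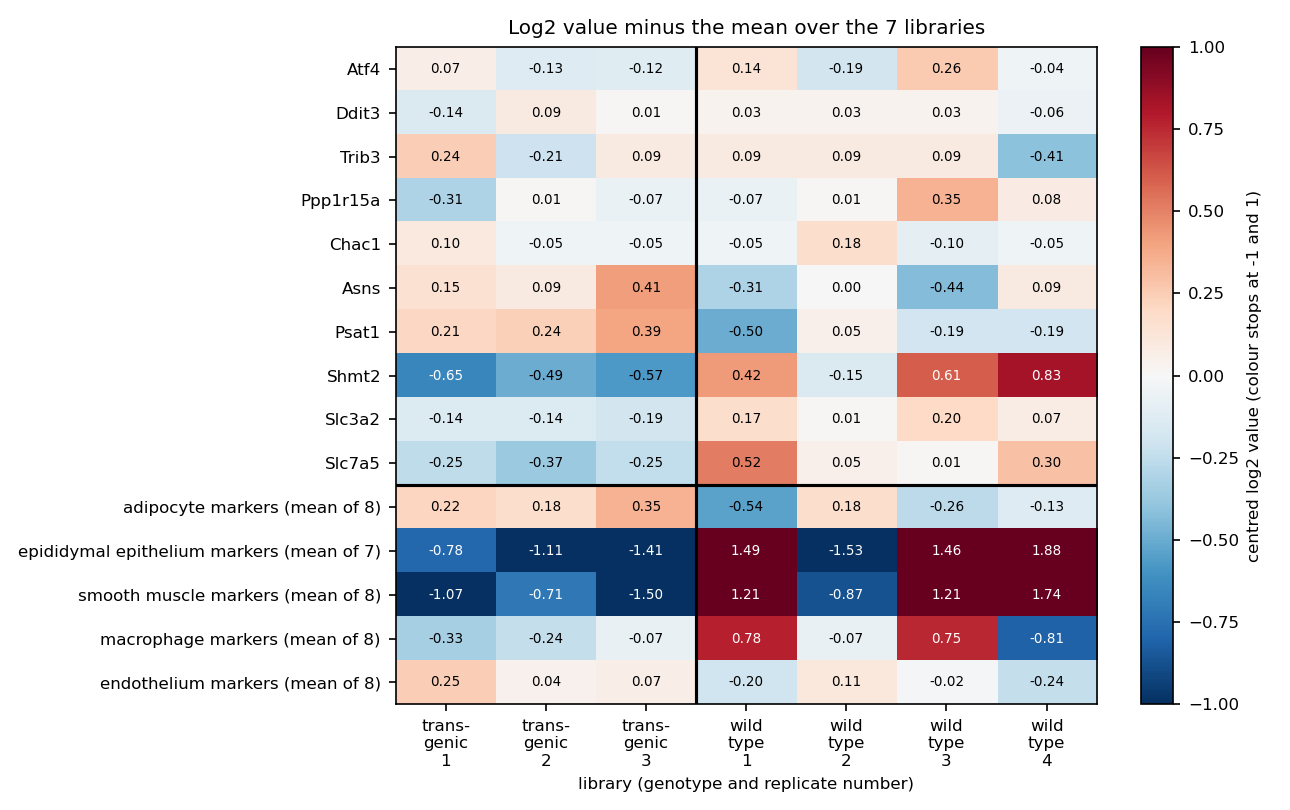
Log2 value minus the mean over the 7 libraries (colour and printed number; colour stops at -1 and 1) for the 10 genes and for the mean of 5 sets of cell type markers, with transgenic libraries left of the vertical line. Shmt2 runs from -0.65 in transgenic replicate 1 to 0.83 in wild type replicate 4, and the epididymal and smooth muscle rows are above 1 in wild type replicates 1, 3 and 4 only.

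Other genes linked to this arm were listed by role, 60 genes in 6 groups, of which 56 were measured. The lists include eIF2alpha kinases other than PERK, and which branch of the response controls each gene was not tested. Means were higher in transgenic fat for 34 and lower for 22, with a median difference of 0.05. Against wild type replicate 2 alone 31 were higher and 24 lower, with a median difference of 0.0090. With limma 0 passed an adjusted p of 0.05, and 6 higher and 4 lower had an unadjusted p under 0.05, beside 4.82% and 3.12% of all probe sets. Groups were apart for 3 genes higher, beside 3.38% of all probe sets, and for 3 lower, beside 2.44%. The same shares stand beside the counts of genes apart in each list that follows.

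Among 7 measured eIF2alpha kinases and regulators the 4 kinases overlapped between genotypes, with Eif2ak3 (PERK itself, given here after its values were seen) at 6.65, 6.98 and 6.65 in transgenic and 6.45, 6.65, 6.59 and 6.54 in wild type libraries. Dnajc3, an ER co-chaperone also known as an inhibitor of eIF2alpha kinases, read 9.77, 10.05 and 9.45 in transgenic libraries, against 8.89, 9.18, 8.89 and 9.05 in wild type libraries. It was the only gene of this list whose groups were apart, with a difference of 0.75 (SE 0.15; limma adjusted p = 0.622), and of 0.57 against wild type replicate 2 alone. The part of XBP1 itself in the Dnajc3 difference was not tested. Of 8 transcription factors 6 had a higher transgenic mean and 0 were apart. Smallest in p were Cebpg, a partner of ATF4, with a difference of 0.17, and Nupr1, with 0.16. Neither passed, and against wild type replicate 2 alone they differed by 0.018 and 0.024. Atf3, a stress factor singled out after its values were seen, read 5.66, 5.63 and 5.86 in transgenic libraries, against 7.71, 6.52, 7.03 and 5.65 in wild type libraries, a difference of -1.01 with overlapping groups, and of -0.81 against wild type replicate 2 alone.

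The list of amino acid and one-carbon synthesis enzymes went both ways. Transgenic means were higher for 6 of 11 measured and lower for 5, and the 2 with groups apart lay on opposite sides. Psph, the last step of serine synthesis, read 4.89, 4.89 and 5.11 in transgenic libraries, against 4.84, 4.65, 4.79 and 4.81 in wild type libraries (difference 0.19, limma adjusted p = 0.622). Mthfd1l, a mitochondrial enzyme downstream of the Shmt2 reaction, read 4.09, 4.55 and 4.43 in transgenic libraries, against 5.41, 4.61, 5.03 and 5.02 in wild type libraries (difference -0.66, limma adjusted p = 0.622). Phgdh, the first step of serine synthesis and singled out after its values were seen, differed by 0.51 with overlapping groups. Mthfd2, another mitochondrial one-carbon enzyme given after its values were seen, differed by -0.15 with overlapping groups. Against wild type replicate 2 alone Phgdh differed by 0.06, Psph by 0.31 and Mthfd1l by -0.25, while Mthfd2 turned to 0.20.

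Amino acid transporters other than the exchanger had 3 of 8 higher and 5 lower means, and 0 were apart. Slc43a1, another carrier of large neutral amino acids, differed by 0.69, and the glycine carrier Slc6a9 by -0.27; they had the smallest p and did not pass. Against wild type replicate 2 alone Slc43a1 differed by 0.24 and Slc6a9 by -0.22. Of 11 cytosolic aminoacyl-tRNA synthetases, 5 had a higher and 6 a lower mean, and the median difference was -0.0025. Wars, the tryptophan enzyme, was apart and read 7.64, 7.65 and 7.43 in transgenic libraries, against 9.72, 7.71, 8.94 and 9.58 in wild type libraries (difference -1.41, SE 0.48; limma adjusted p = 0.622). Like Shmt2 it was high in wild type replicates 1, 3 and 4, and against replicate 2 alone it differed by -0.14. Iars, the isoleucine enzyme, was apart too (difference -0.34, and -0.25 against wild type replicate 2 alone), although its dimmer probe set differed by -0.18 with overlapping groups.

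Stress effectors and secreted factors had 8 of 11 higher means and a median difference of 0.25. That median rested on single libraries: it was 0.08 without transgenic replicate 3 and 0.14 without wild type replicate 1. Eif4ebp1, the inhibitor of cap-dependent translation that ATF4 induces, was the only one apart, at 9.01, 8.99 and 8.99 in transgenic libraries, against 8.39, 8.95, 8.41 and 8.64 in wild type libraries (difference 0.40, SE 0.14; limma adjusted p = 0.622). The nearest wild type library was replicate 2. Against that library alone Eif4ebp1 differed by 0.05, and the median difference of the group was 0.05.

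**Figure D4:**
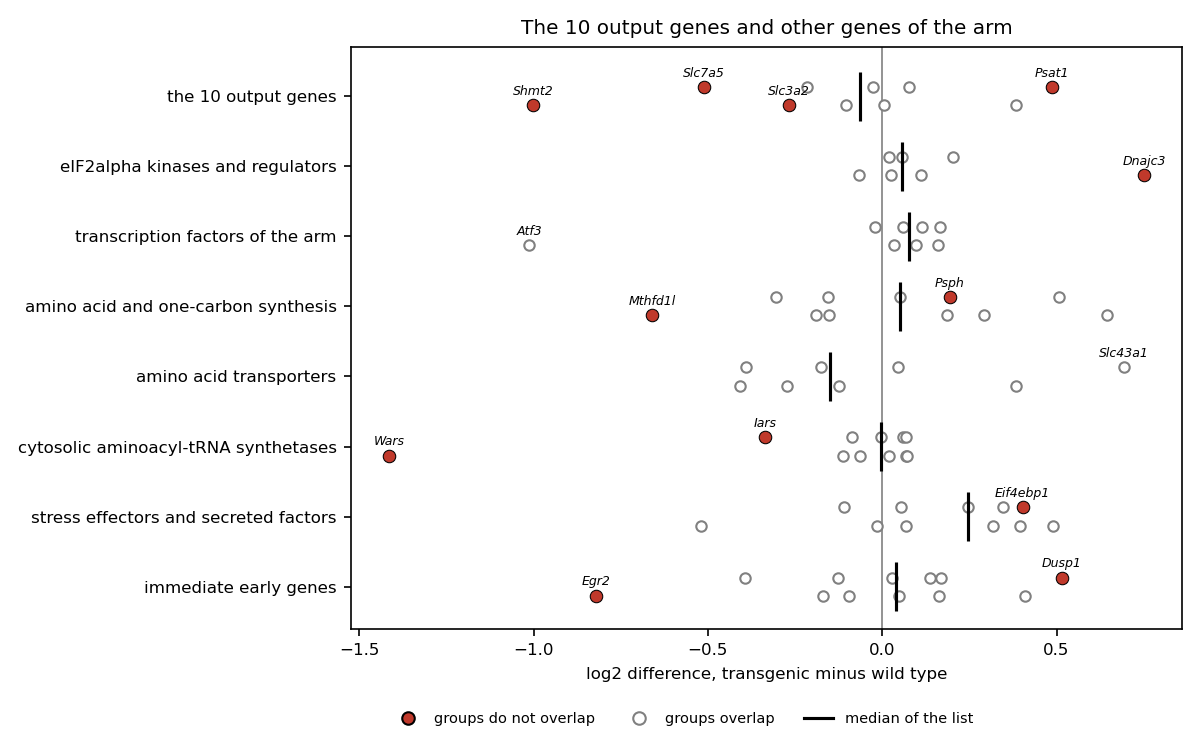
Log2 difference, transgenic minus wild type (horizontal axis), of the 10 output genes and of 7 other gene groups (rows); filled points mark genes whose genotype groups do not overlap, and black lines are medians. Medians lay between -0.15 for amino acid transporters and 0.25 for stress effectors, and most points overlapped between genotypes.

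The core searched above also occurred in the windows of 13 of 46 other measured genes of the lists that matched the promoter table by symbol, beside 3.97% of all windows. Here too genes are set beside windows. The genes were listed for known roles in the response, so a higher share is not a result of these data. Of the 16 genes that carry the core 10 had a higher transgenic mean and 6 a lower one. Likeness of pattern was measured as the root mean square distance between values centred over the 7 libraries, among 9894 other genes with a mean above the median. Nearest to Psat1 were Ppm1m (distance 0.035), Ndufs5 (0.043) and Lin52 (0.051), and nearest to Shmt2 were Adgrg6 (0.104), Flna (0.121) and Spint1 (0.124). Nearest to Atf4 were Fbxo46, Atp6v1f and Cnp (0.036 to 0.052), and to Ddit3 Upf1, Tmem185b and Gm16008 (0.025 to 0.030). The neighbours of Shmt2, like Shmt2, read highest in wild type replicate 4 and next to the transgenic libraries in wild type replicate 2. They were picked for closeness to Shmt2 in these same values, so the shared order follows from the choice.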

How the data were processed

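The authors deposited log2 expression values for 35556 probe sets, made with RMA per the submitters' processing notes; the version and genome build are not given in the sources used. RMA brings arrays to a common distribution, so a shift of all genes in 1 genotype would not be seen, and array medians ran from 3.99 to 4.01 in transgenic and from 4.03 to 4.04 in wild type libraries. Scanner files were not used here, so depth over background is unknown. Column names gave the sample of all 7 columns.

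Probe sets paired with exactly 1 symbol by the platform annotation numbered 21789 (several: 1621; none: 12146). Genes with several probe sets were taken at the one with the highest mean. Transgenic minus wild type was fitted on the log2 values with limma 3.58.1 in R 4.3.3 (lmFit, eBayes, two-sided) on genotype alone, with Benjamini-Hochberg adjustment over all 21789. The fit was tested on simulated data. A 95% interval is limma's and is not adjusted for the number of genes. Figures used Python 3.11.15 and matplotlib 3.10.9.

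Named genes were the 10 members, Xbp1, from each list up to 4 genes of smallest p with groups apart or else the 2 of smallest p, and the 3 nearest patterns of Atf4, Ddit3, Psat1 and Shmt2. Members and lists, cell type markers included, were chosen with earlier results of these data known. Alternatives were array weights, a replicate block, a robust prior with intensity trend, 1 probe set per gene, all rows tested, the dimmest 0.25 of probe sets dropped, a second quantile normalization, equal array medians, each library dropped in turn, a threshold of 0.1, and controls reduced to wild type replicate 2.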

Additional observations from a re-analysis of the deposited data

Results flagged for a closer look

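Among 28 sets of 4 wild type values examined, 4 held a library far from the other 3. For independent values in sets picked without sight of the data, chance gives about 1 in 20. These genes and markers were chosen with earlier results known, and some values are tied, so the count cannot be compared with that rate. Ddit3 read 5.16 in wild type replicate 4, below 5.25 in each of the others, and Trib3 read 4.43 in the same library, below 4.93 in each of the others. In both genes the other 3 values are identical, so any departure stands apart. Iars read 7.15 in wild type replicate 1, with 6.89 the nearest. The mean of the 7 epididymal markers was 2.71 in wild type replicate 2, with 5.71 the nearest.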

How the results depend on the processing

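For the 10 genes 16 alternatives each gave a difference. Asns, Psat1, Ppp1r15a, Shmt2, Slc3a2 and Slc7a5 kept their sign in all 16, which for the 4 with groups apart is fixed wherever libraries are only left out, and only Shmt2 without wild type replicate 2 passed the limma threshold (-1.19, adjusted p = 0.0388; over its alternatives 0.0388 to 0.817). That fit called 7 probe sets higher and 84 lower and 1 of the 10 genes, against 0 without any other single library. Signs turned for small differences. Atf4 was 0.13 against wild type replicate 2 alone, and Trib3 -0.049 and Chac1 -0.18 there; Trib3 was -0.040 with array weights. Ddit3 was 0.013 after another quantile normalization and 0.015 after the shift to a common median, where the median over all probe sets became 0.019 and 0.050, against 0.0090 as deposited. With 1 library left out at a time, Ddit3 ran from -0.079 to 0.040, Trib3 from -0.049 to 0.20 and Chac1 from -0.043 to 0.066. With the replicate number as a block Trib3 was -0.049 and Chac1 -0.0086, and no call changed; same-numbered libraries deviated together only weakly or oppositely (correlations -0.14, -0.095 and 0.058), so the numbers were not taken as pairs. The mean of several probe sets was not run, since each of the 10 genes has 1. The number of arrays, 3 and 4, limits the precision, and the values carry no detection measure, so signal over background is unknown.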

Other observations

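Immediate early genes, which respond quickly to handling and to many signals, were listed beside the PERK branch. In transgenic fat means were higher for 7 of 12 and lower for 5 (median difference 0.04, turning to -0.01 without wild type replicate 2, -0.07 without wild type replicate 4 or with the replicate block, and -0.07 without transgenic replicate 2). Egr2, a zinc finger factor, read 4.42, 3.94 and 4.52 in transgenic libraries, against 5.57, 5.08, 5.13 and 4.68 in wild type libraries (difference -0.82, and -0.78 against wild type replicate 2 alone). Dusp1, a phosphatase of MAP kinases, read 8.76, 8.35 and 8.61 in transgenic libraries, against 8.33, 8.14, 8.33 and 7.44 in wild type libraries (difference 0.52, and 0.44 against wild type replicate 2 alone). The Dusp1 difference was 0.31 without wild type replicate 4, and also with the replicate number as a block. These were the 2 genes of the list with groups apart, beside 5.82% of all probe sets, on opposite sides, and limma passed neither (adjusted p = 0.622 for Egr2 and 0.637 for Dusp1). Fos was given after its values were seen. It read 4.32, 4.88 and 4.60 in transgenic libraries, against 5.34, 4.74, 5.66 and 4.24 in wild type libraries, and its groups overlapped.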
